A study of Mus musculus with 4 samples.

Results

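The complement components and receptors described here are a set of 10 genes of one innate immune pathway. They were taken by name, with earlier results of these data known. Their RNA was measured in quadriceps, the large thigh muscle, of NF90-NF45 double transgenic (dbTg) and wild-type (WT) mice. The set holds the C1q chains C1qa, C1qb and C1qc, the components C2, C3, C4b and C7, the receptors C3ar1 and C5ar1, and the inhibitor Serping1. Each gene was read from its brightest row among the rows annotated with that symbol alone. This gave values for 9 of the 10 genes, out of 22180 genes with a row of their own. C3 was not analysed here. Of the 9 genes, 8 passed the filter on dim genes and were tested among 13308 genes. C5ar1 lay under the filter and has values only.

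The study compared 2 dbTg mice with 2 WT mice on Affymetrix whole-transcript arrays, with 1 array for each mouse. Replicate 1 was the male and replicate 2 the female of each group. The dbTg mice were 16 weeks old, as was the WT female, and the WT male was 17 to 18 weeks old. The sources used here do not give the promoter of the transgenes or the background strain. The check of the NF45 transgene held in every library: Ilf2, which encodes NF45, read 10.36 and 10.16 on the dbTg arrays, against 5.03 and 5.04 on the WT arrays (log2 scale). Skeletal muscle markers had list means of 10.34 and 10.12 in dbTg and 10.30 and 10.37 in WT, so all 4 arrays read as muscle. Levels are RMA values on the log2 scale, so a difference of 1 is a doubling. Precision is limited by the small number of arrays.

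Complement is a cascade of plasma and tissue proteins that marks cells and debris for removal. In the classical pathway C1q binds a target, its attached proteases cleave C4 and C2, and the product cleaves C3. Fragments of C3 and C5 then attract myeloid cells through their receptors, while C5b to C9 can assemble a pore in a membrane. The liver makes most plasma complement proteins, but C1q is known to come mainly from macrophages and dendritic cells.

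The C1q chains are encoded side by side, and all of them were higher in dbTg muscle. The 250 bases before the annotated start of C1qb (chr4:136886201-136886450, minus strand, RefSeq, GRCm38.p6) and of C1qc (chr4:136892915-136893164, minus strand) are shown because these neighbours moved together. The same window of C3ar1 (chr6:122856158-122856407, minus strand), which was also higher, and of C7 (chr15:5063774-5064023, minus strand), which was not, is shown for contrast. Capitals mark matches to the motifs searched on both strands, which were GAGGAA (the core that PU.1 binds), TTCNNNGAA (the interferon-gamma activated site), GAAANNGAA (the interferon-stimulated element), TGANTCA (AP-1) and TATAAA (the TATA box).

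C1qb: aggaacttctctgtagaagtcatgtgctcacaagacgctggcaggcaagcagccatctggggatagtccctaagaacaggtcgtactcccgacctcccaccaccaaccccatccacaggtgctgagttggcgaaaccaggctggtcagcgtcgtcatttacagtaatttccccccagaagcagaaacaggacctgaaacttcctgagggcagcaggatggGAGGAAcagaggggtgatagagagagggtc

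C1qc: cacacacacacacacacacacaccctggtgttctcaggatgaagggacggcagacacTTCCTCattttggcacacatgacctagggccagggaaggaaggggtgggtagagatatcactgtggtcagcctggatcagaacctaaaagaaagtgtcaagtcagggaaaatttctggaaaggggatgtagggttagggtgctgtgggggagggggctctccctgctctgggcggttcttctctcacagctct

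C3ar1: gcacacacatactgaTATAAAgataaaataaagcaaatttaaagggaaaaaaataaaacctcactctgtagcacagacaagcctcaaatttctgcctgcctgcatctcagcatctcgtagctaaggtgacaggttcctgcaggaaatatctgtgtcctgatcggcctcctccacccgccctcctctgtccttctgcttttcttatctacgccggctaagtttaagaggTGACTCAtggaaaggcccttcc

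C7: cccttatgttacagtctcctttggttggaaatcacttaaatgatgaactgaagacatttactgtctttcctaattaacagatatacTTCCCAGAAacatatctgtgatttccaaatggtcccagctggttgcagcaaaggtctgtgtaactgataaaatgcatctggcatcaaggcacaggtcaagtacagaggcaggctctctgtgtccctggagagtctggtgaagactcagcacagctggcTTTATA

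The windows of C1qb and C1qc each held 1 GAGGAA, starting 30 and 193 bases before the annotated start, on the gene's strand in C1qb and on the other strand in C1qc. Neither held any of the other 4 motifs. GAGGAA was found in 28.3% of the 32851 promoter windows of 300 bases in the same table. A match in the windows of C1qb and C1qc is therefore a description of letters and not a binding site. The sources used here held no window for C1qa, C2, C4b or Serping1. C3ar1 had TGANTCA starting 22 bases before its start, a motif held by 7.81% of windows, and TATAAA 235 bases before it (13.6% of windows). C7 had TTCNNNGAA 164 bases before its start (8.3% of windows), TATAAA on the other strand directly before the start, and GAAANNGAA (8.56% of windows) in the stretch of 50 bases after the start, which is not printed. The marked matches do not overlap each other in the windows shown. The windows of C3 and C5ar1 were also searched and are not printed. C5ar1 had GAAANNGAA on the other strand, starting 66 bases before its start. C3 had TATAAA in the stretch of 50 bases after its start.

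In quadriceps of dbTg mice the RNA of the C1q chains was higher, as was that of the anaphylatoxin receptor C3ar1 and the C1 inhibitor Serping1, by 2.02-fold to 5.63-fold. C4b differed by as much as these but just missed the threshold, and C2, C5ar1 and C7 did not pass a test. In limma, 5 of the 8 tested members were higher and 0 lower in dbTg, where 2.01% of all 13308 tested genes were higher and 0.203% lower. The dbTg and WT arrays did not overlap for 7 of the 8, with dbTg higher, against 33.7% of all tested genes. The median difference was 1.40 over the 9 members with a row, and -0.02 over all genes with a row (1.50 over the 8 tested members and 0.09 over all tested genes). The members were chosen with earlier results of these data known, so these counts and medians describe the set and do not test it. C1qc and C2 passed the filter through their dbTg arrays, since their WT means of 1.43 and 1.19 lay under its threshold of 1.48. Without a filter 3 of the 9 members were called higher, the C1q chains, against 0.744% of 22180 genes. Every call among the members was lost when either dbTg array was left out, with the lone dbTg array assumed to vary like the WT arrays (limma adjusted p of 0.156 to 0.349). With sex, which the replicate number follows, as a block in the model, 0 members were called, and the limma adjusted p of these 5 were 0.0589 to 0.0943.

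**Figure D1:**
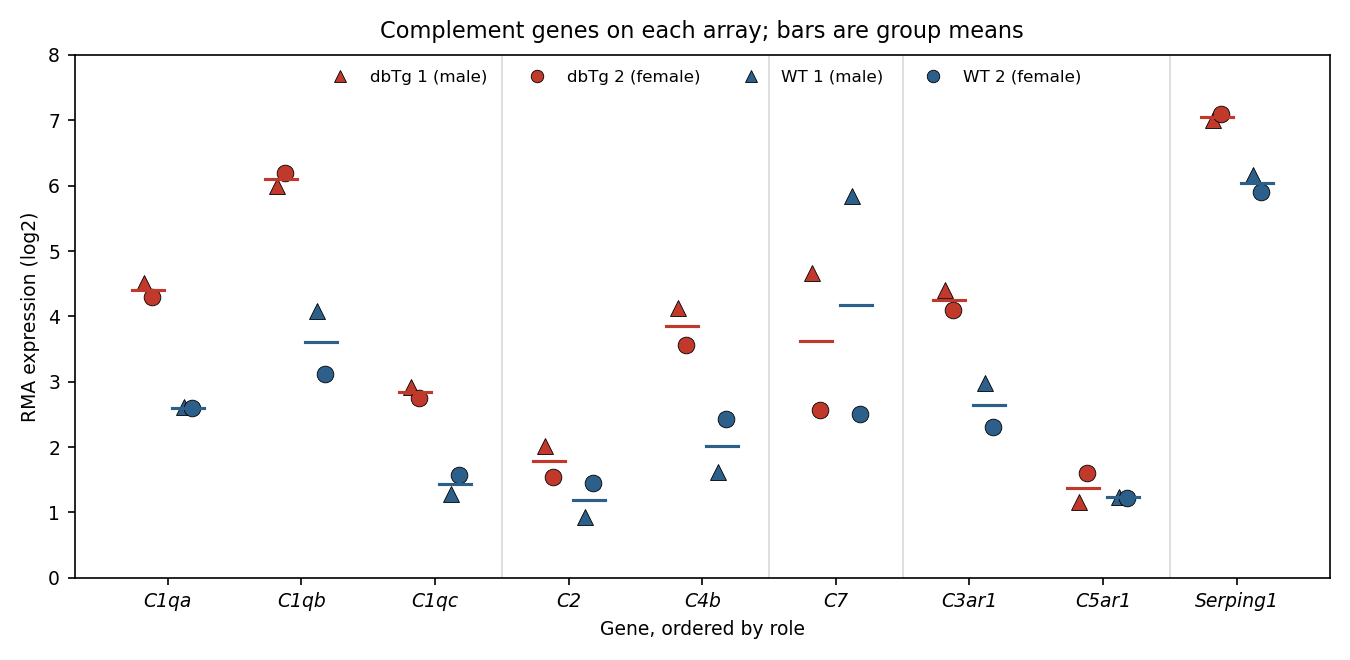
RMA expression on the log2 scale (vertical axis) of the 9 measured complement genes on each array, with dbTg in red left of WT in blue, triangles for males, circles for females and bars for group means. The C1q chains, C4b, C3ar1 and Serping1 lie higher on both dbTg arrays, and C7 splits by sex, with 4.67 (dbTg) and 5.85 (WT) for males, and 2.56 (dbTg) and 2.50 (WT) for females.

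C1qb, the B chain of C1q, had the largest difference of the members. It read 5.99 and 6.20 on the dbTg arrays, against 4.09 and 3.12 on the WT arrays. The dbTg mice read nearly alike, whereas the WT male was clearly above the WT female. The dbTg mean of 6.09 ± 0.14 and the WT mean of 3.60 ± 0.69 (SD, n = 2 each) differed by 2.49 (SE 0.32, limma adjusted p = 0.0211), or 5.63-fold, which ranked 43 among the differences of all tested genes. The smallest gap between a dbTg and a WT array was 3.75-fold.

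C1qa, the A chain, was at 4.51 and 4.30 in dbTg muscle, against 2.62 and 2.59 in WT muscle. Both groups were tight and far apart. The means of 4.40 ± 0.15 in dbTg and 2.60 ± 0.02 in WT (SD, n = 2 each) differed by 1.80 (SE 0.21, limma adjusted p = 0.0152), or 3.47-fold. When 1 array was left out the difference stayed between 1.69 and 1.90.

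C1qc, the C chain, was dimmer, at 2.92 and 2.75 in dbTg muscle and 1.29 and 1.58 in WT muscle. Its WT values lay near or under the medians of the arrays, which were 1.55 to 1.60. The difference was 1.40 (SE 0.21, limma adjusted p = 0.0326), or 2.65-fold, and 2.26-fold between the nearest arrays of the groups. After quantile normalization its adjusted p was 0.0537 in limma.

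The C1q genes lie together on chromosome 4. Of the 3 nearest tested genes on each side, 0 of 6 passed the threshold, with differences between -0.87 and 0.45. The C1q-like proteins outside the complement pathway, which share the globular domain of C1q, were also measured. Of 10 tested, 0 passed the threshold, and the median was 0.01 over 15 with a row. Their largest difference was that of C1qtnf3, an adipokine-like secreted protein, at 1.87 (limma adjusted p = 0.0654).

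C4b encodes the classical pathway's C4, whose cleavage leaves a fragment bound to the target. It read 4.13 and 3.56 on the dbTg arrays, against 1.62 and 2.42 on the WT arrays. The groups did not overlap, but the arrays within each group stood apart. The difference of 1.83 (SE 0.34), or 3.55-fold, had a limma adjusted p of 0.0512, and was between 1.42 and 2.23 when 1 array was left out. C4b was past the threshold in 6 of 12 alternative settings. C4a, a near-identical copy on the same chromosome, read 1.41 and 1.00 in dbTg and 0.50 and 1.28 in WT, under the filter. The sources used here do not say how far the array's probes separate these copies, so C4b is uncertain in this respect.

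C2, the protease that joins the C4 fragment in the classical C3 convertase, was dim. Its dbTg arrays read 2.02 and 1.54, against 0.93 and 1.45 on the WT arrays. The males were 1.09 apart and the females only 0.09 apart. The mean difference of 0.59 (SE 0.25) did not pass the threshold (limma adjusted p = 0.275).

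Cfb, the alternative pathway counterpart of C2 and its direct neighbour on chromosome 17, was at 3.90 and 4.47 in dbTg muscle and at 2.52 and 2.53 in WT muscle. It was higher by 1.66 (SE 0.25, limma adjusted p = 0.033), or 3.15-fold. Its call was lost after quantile normalization (limma adjusted p = 0.0645) and with sex as a block in the model (0.0793). The call was also lost without dbTg replicate 1 (difference 1.94) and without dbTg replicate 2 (1.38). The 10 other tested genes that lie between or beside C4b, Cfb and C2 had differences from -0.59 to 0.51, and 0 of them passed the threshold. The differences of C4b, Cfb and C2 stood above those of all 10, C2 only narrowly (0.59, against 0.51 for the highest neighbour).

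**Figure D2:**
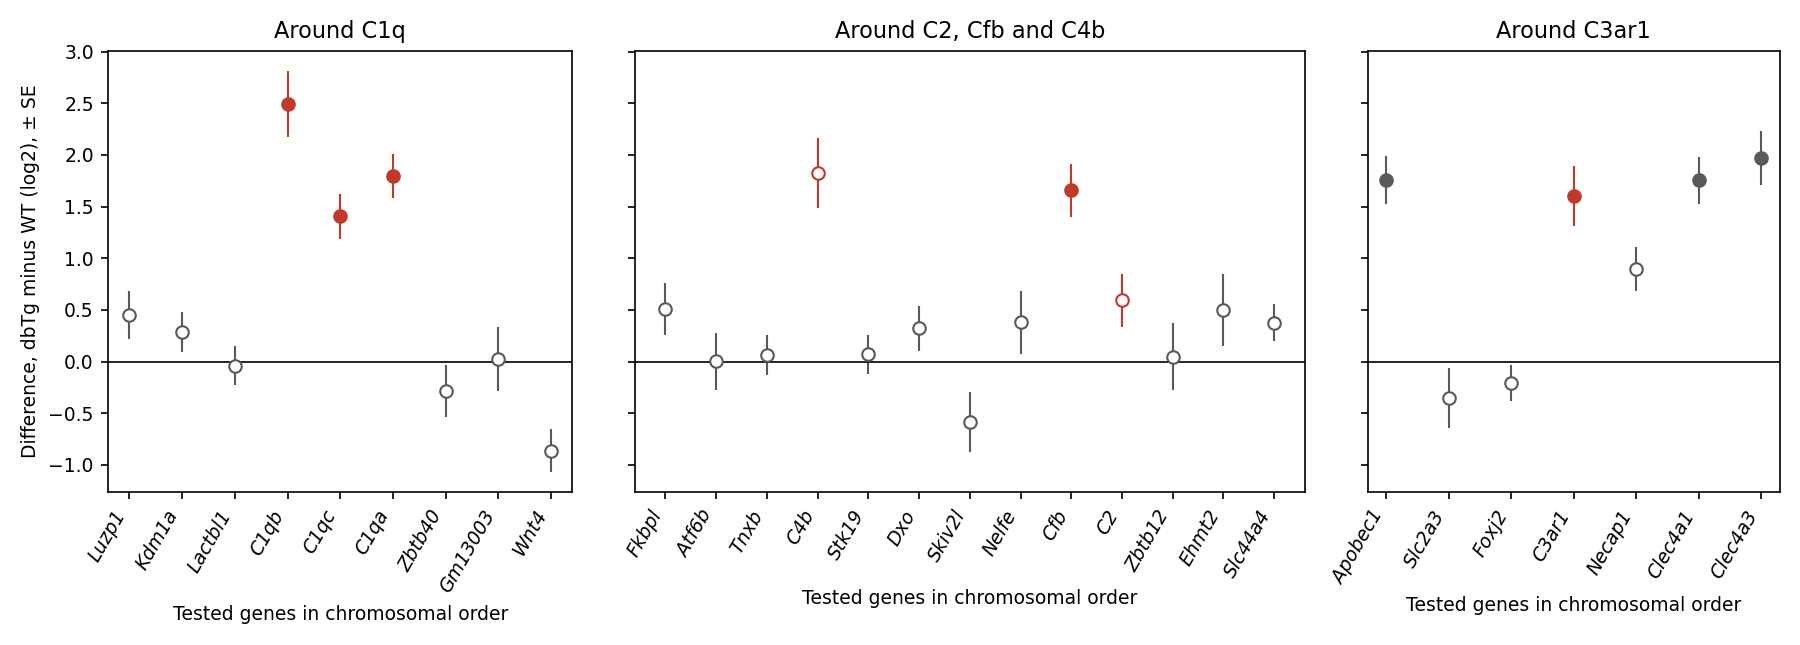
Differences between dbTg and WT on the log2 scale (vertical axis, bars are SE) for tested genes in chromosomal order around the C1q chains, around C2, Cfb and C4b, and around C3ar1. Red marks complement genes, grey their neighbours, and filled points passed the limma threshold: 0 of 6 neighbours did around C1q, 0 of 10 around C2, Cfb and C4b, and 3 of 6 around C3ar1. Of all tested genes, 2.01% passed it as higher and 0.203% as lower.

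C3ar1, the receptor for the C3a fragment on myeloid cells, read 4.40 and 4.09 on the dbTg arrays and 2.98 and 2.30 on the WT arrays. In both groups the male was the higher, and the lowest dbTg array was 2.16-fold above the highest WT array. The means of 4.25 ± 0.22 in dbTg and 2.64 ± 0.48 in WT (SD, n = 2 each) differed by 1.60 (SE 0.29, limma adjusted p = 0.0463), or 3.04-fold. The call was lost after quantile normalization (limma adjusted p = 0.0831) and without a filter on dim genes (0.0636). Of its 6 nearest tested neighbours on chromosome 6, 3 were higher in limma, where 2.01% of all tested genes were. They were Clec4a1 (1.75, limma adjusted p = 0.0213) and Clec4a3 (1.97, 0.0232), lectin receptors of myeloid cells, and Apobec1 (1.76, 0.0232), a cytidine deaminase that edits RNA.

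C5ar1, the receptor for C5a, read 1.16 and 1.60 in dbTg muscle and 1.24 and 1.22 in WT muscle. The groups overlapped at a level near the array medians, and the gene was under the filter. Its difference was 0.15, with a limma adjusted p of 0.77 when all genes were tested.

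Serping1 encodes the C1 inhibitor, which inactivates the proteases bound to C1q. It was the member that changed least among those called, at 7.0 and 7.09 on the dbTg arrays and 6.16 and 5.90 on the WT arrays. Both groups were tight. The means of 7.05 ± 0.07 in dbTg and 6.03 ± 0.19 in WT (SD, n = 2 each) differed by 1.01 (SE 0.17, limma adjusted p = 0.0397), or 2.02-fold. Its call was lost after quantile normalization (limma adjusted p = 0.0537), without a filter (0.0586) and without an intensity trend (0.0624). Of 5 other serpins tested, 1 was higher (2.01% of all tested genes), Serpinb1a, an inhibitor of neutrophil proteases, by 2.40 (limma adjusted p = 0.00505). Serpina3n, an acute phase serpin, had a difference of 2.37 (limma adjusted p = 0.0512).

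**Figure D3:**
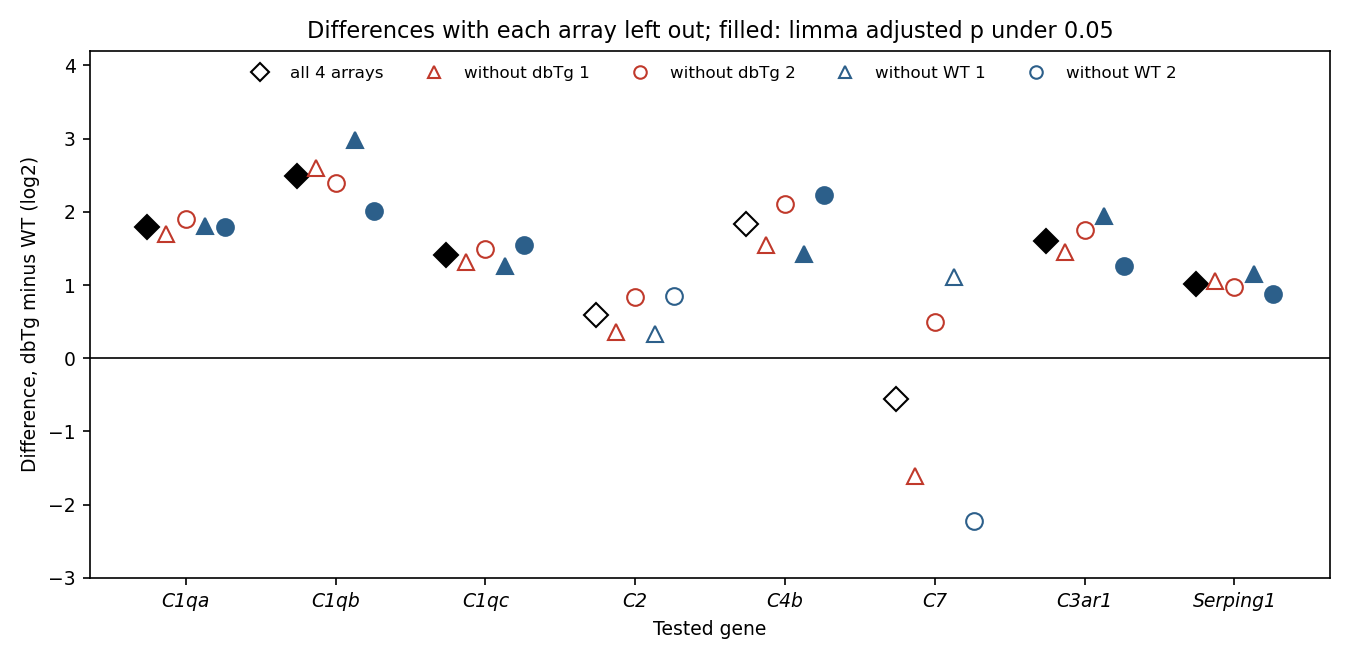
Difference between dbTg and WT on the log2 scale (vertical axis) for the 8 tested members with all 4 arrays and with each array left out, and filled symbols for a limma adjusted p under 0.05. No symbol is filled without either dbTg array, and C7 changes sign with the array left out, between -2.23 and 1.11.

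C7, whose binding lets the growing membrane attack complex enter the target membrane, split the arrays by sex and not by genotype. It read 4.67 in the dbTg male and 2.56 in the dbTg female, against 5.85 in the WT male and 2.50 in the WT female. The groups overlapped completely, and the difference by genotype was -0.56 (SE 1.09, limma adjusted p = 0.836). It was -1.18 in the male pair and 0.06 in the female pair.

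Between sexes, C7 was 2.10 higher in the male than in the female of the dbTg group and 3.34 higher in WT. This contrast was made after the values were seen. With genotype in the model the difference of male minus female was 2.72 (SE 0.34), or 6.60-fold, the sixth in size of all 13308 tested genes. Its unadjusted p was 0.000407, but the limma adjusted p was 0.902, and 4 genes or 0.0301% of those tested were called in this contrast. Of the 8 tested members, C7 alone had an unadjusted p under 0.05, where 4.26% of all tested genes did, and the others differed by at most 0.49 between sexes. Other genes with large differences between the sexes, picked after their values were seen, included a pair known from slow muscle fibres. Myh7, the slow myosin heavy chain, read 1.62 in the dbTg male and 5.33 in the dbTg female, against 2.30 in the WT male and 6.29 in the WT female (limma adjusted p = 0.032). Tnnc1, the slow and cardiac troponin C, read 3.14 and 5.41 in the dbTg male and female, against 2.19 and 6.54 in the WT male and female, and did not pass the threshold (limma adjusted p = 0.975). Their part in the difference of C7 was not tested. The WT male was also the oldest mouse, and in each group sex and replicate number cannot be told apart.

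The rest of the pathway was taken from a list of 52 other genes, of which 47 had a row and 25 were tested. In limma, 2 of the 25 were higher in dbTg, Cfb and Itgam, and 0 were lower. Of all tested genes, 2.01% were higher and 0.203% lower. An unadjusted p below 0.05 was found for 9 higher and 0 lower genes, where 14% of all tested genes were higher and 4.64% lower at that p. Their median difference was -0.02 over the 47 with a row and 0.19 over the 25 tested, close to the medians of all genes given above. Itgam, the alpha chain of complement receptor 3 on macrophages and neutrophils, read 3.25 and 3.38 on the dbTg arrays, against 1.39 and 1.70 on the WT arrays. It was higher by 1.77 (SE 0.22, limma adjusted p = 0.0196), or 3.41-fold. Its call too was lost with sex as a block in the model (limma adjusted p = 0.0589). The call was also lost without dbTg replicate 1 (difference 1.84) and without dbTg replicate 2 (1.70).

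Among genes other than the C1q chains that start the cascade, 0 of 6 tested passed the threshold. Colec12, a scavenger receptor with a collectin domain, was nearest, at 4.42 and 4.63 in dbTg and 3.51 and 3.36 in WT (difference 1.09, limma adjusted p = 0.052). C1ra, the protease that C1q carries, had a difference of 0.93 (limma adjusted p = 0.0979), and C1rb, its copy, of 0.18 (0.685). Properdin, the stabiliser of the alternative convertase encoded by Cfp, differed by 0.21 (limma adjusted p = 0.779).

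Receptors other than C3ar1 had 1 of 7 tested genes past the threshold, Itgam, where 2.01% of all tested genes were higher. Itgb2, the beta chain that pairs with it, had a difference of 0.97 (limma adjusted p = 0.0929), Lrp1, a large endocytic receptor, of 0.91 (0.0797), and Itgax, the alpha chain of complement receptor 4, of 0.71 (0.116). These receptors, named for their small p-values, all had dbTg arrays above the WT arrays, as did 33.7% of all tested genes. Itgax passed the filter through its dbTg arrays, with a WT mean of 1.13. The other tested receptors, C1qbp (-0.24), C5ar2 (-0.11) and Cd93 (-0.08), had negative differences and overlapping groups. Regulators on cells and in fluid other than Serping1 had 0 of 8 tested genes past the threshold. Cd55, which breaks up C3 convertases, differed by 0.55 (limma adjusted p = 0.279). Cd59b, which blocks the membrane pore, differed by 0.54 (0.263) and Cd46, a cofactor for C3b cleavage, by -0.20 (0.69). Cd59a, brighter than Cd59b at a mean of 6.90 in dbTg and 6.88 in WT, differed by 0.02. Cr1l, at 4.71 in dbTg and 4.72 in WT, differed by -0.004. The other tested regulators, Clu (0.19), Thbd (0.19) and Vtn (0.10), had small positive differences. Of the terminal components other than C7, 0 of 2 tested were called. C6 differed by 0.54 (limma adjusted p = 0.158) and C8g, the gamma chain of C8, by -0.26 (0.5). Like Itgax, C6 passed the filter through its dbTg arrays, with a WT mean of 1.30.

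**Figure D4:**
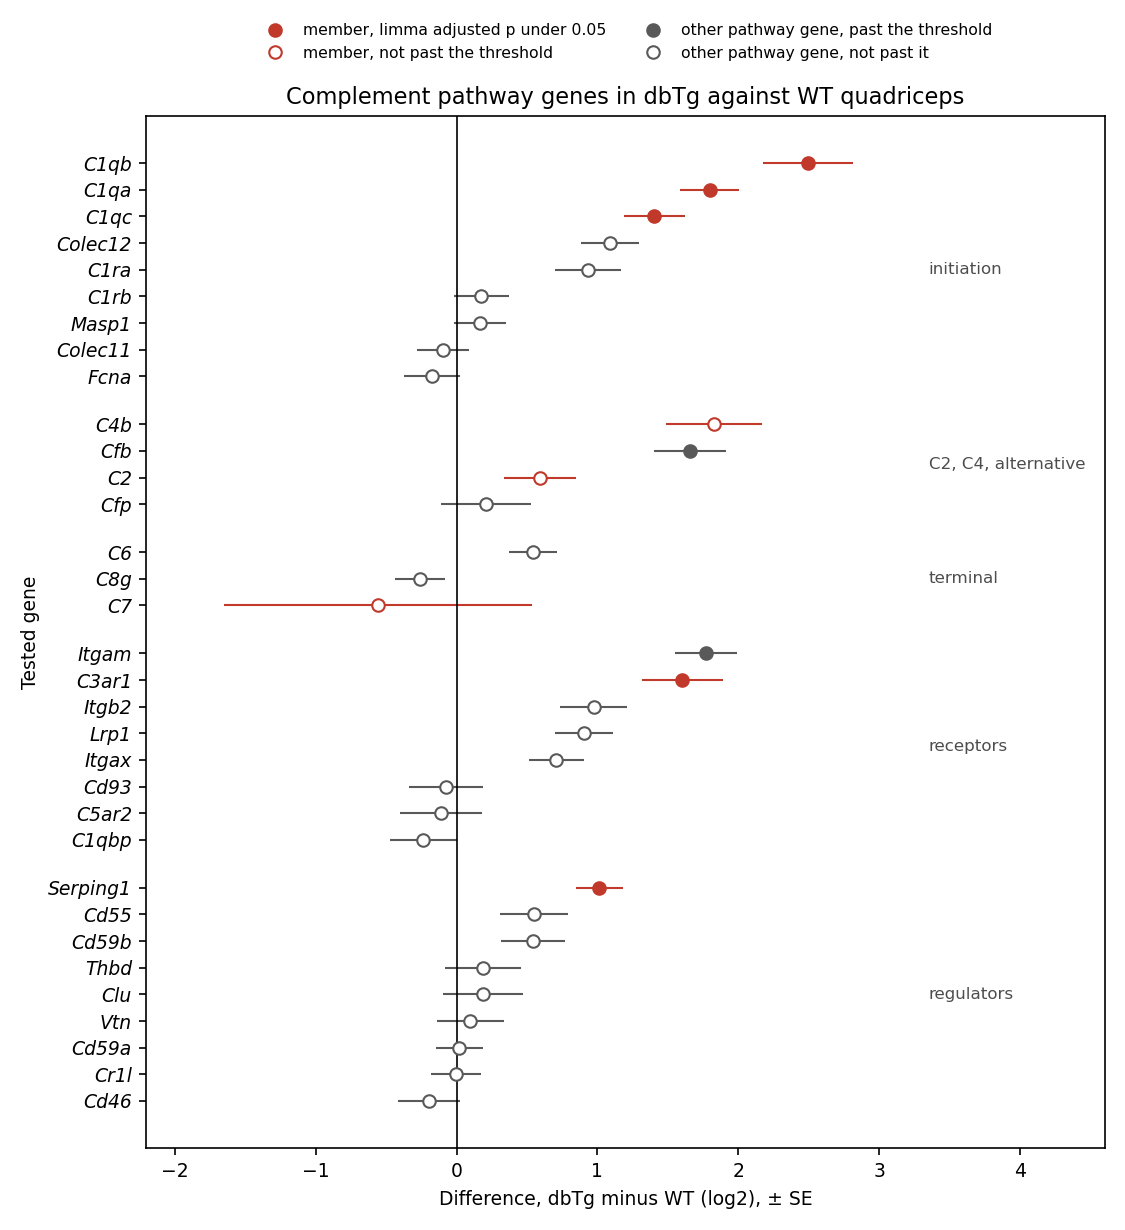
Differences between dbTg and WT on the log2 scale (horizontal axis, bars are SE) of the 8 tested members in red and the 25 other tested pathway genes in grey, grouped by role, with filled points for a limma adjusted p under 0.05. The filled points are C1qa, C1qb, C1qc, Cfb, Itgam, C3ar1 and Serping1, all on the side of dbTg, and C7 has the widest error.

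Most markers of macrophages moved with these genes. All 12 listed markers had positive differences, and for 9 of them the groups did not overlap (33.7% of all tested genes). The groups overlapped for Cd163, Aif1 and Cd14. In limma 4 of the 12 passed the threshold, where 2.01% of all tested genes were higher: Cd68 (3.76), Lyz2 (2.32), Adgre1 (1.92) and Mrc1 (1.83). These 4 calls too were lost without either dbTg array (limma adjusted p of 0.0795 to 0.246). Adgre1 was also lost after quantile normalization (0.0651) and with sex as a block (0.0853), and Mrc1 with sex as a block (0.0515). Their list means were 4.29 and 4.12 on the dbTg arrays, against 2.98 and 2.68 on the WT arrays, and the median difference was 1.13. The smallest differences were those of Cd14 (0.33) and Mertk (0.35), whose limma adjusted p were 0.616 and 0.451. In a bulk sample more cells of a type and more RNA in each cell cannot be told apart. After the mean of the macrophage markers was subtracted on each array, the difference between dbTg and WT was 1.12 for C1qb, 0.42 for C1qa and 0.03 for C1qc. It was 0.45 for C4b, 0.23 for C3ar1 and -0.36 for Serping1. For C2 it was -0.78, for C5ar1 -1.23 and for C7 -1.93. After subtraction C1qb and C1qa were higher on both dbTg arrays than on both WT arrays, and Serping1, C2 and C5ar1 were lower, while the groups overlapped for C1qc, C4b, C3ar1 and C7. The subtraction lowers any gene that rose less than the mean of the markers. Before it, C5ar1 (0.15, under the filter), C2 (0.59) and Serping1 (1.01) had positive differences. The subtracted values were not tested, and the share of all genes without overlap after the same subtraction was not computed.

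Other cell types gave a mixed picture beside the complement genes. Fibroblast markers had list means of 6.24 and 6.24 in dbTg and 5.55 and 5.46 in WT, with 0 of 7 past the threshold in limma and 4 higher at an unadjusted p under 0.05 (14% of all tested genes). Adipocyte markers were at 4.60 and 4.50 in dbTg and 3.43 and 3.55 in WT. In limma 2 of 5 were called higher (2.01% of all tested genes), the adipokine genes Adipoq (1.47) and Lep (1.31). Retn had the largest difference of these markers, 1.63, and did not pass the threshold (limma adjusted p = 0.0854). Lep passed the filter through its dbTg arrays, with a WT mean of 1.26, and its call was lost without a filter (limma adjusted p = 0.0636). Both calls were lost without either dbTg array. Endothelial markers were at 4.26 and 4.50 in dbTg and 4.82 and 5.11 in WT, with 0 of 6 called in limma and 3 lower at an unadjusted p under 0.05 (4.64% of all tested genes). Neutrophil markers were at 1.00 and 1.01 in dbTg and 1.27 and 1.15 in WT, with 7 of 8 under the filter. T cell markers (1.60 and 1.67 in dbTg, 1.41 and 1.63 in WT), B cell markers (1.37 and 1.33 in dbTg, 1.50 and 1.37 in WT) and smooth muscle markers (3.55 and 3.57 in dbTg, 3.44 and 3.31 in WT) had 0 called. Hepatocyte markers were at 1.33 and 1.43 in dbTg and 1.60 and 1.57 in WT, and their highest value on any array was 2.37, so the defining RNA of liver, the usual source of plasma complement, was near the array medians. The part of macrophages, fibroblasts and adipocytes in the complement differences was not tested.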

How the data were processed

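Total RNA of quadriceps from 2 dbTg and 2 WT mice was hybridised to 1 Affymetrix whole-transcript array each, per the labels' protocols. The deposited values are log2 RMA expression values per probe set, made by the authors with Affymetrix Expression Console (RMA-sketch), per the sample labels. The sources used here give no software version, annotation build or detection calls.

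Of 41345 rows, 23521 carried exactly 1 gene symbol, 1814 several and 16010 none; 23328 were matched through Entrez IDs to RefSeq (GRCm38.p6), which changed 0 symbols. The brightest row by mean over the 4 arrays stood for a gene, and genes at or above the 40th percentile (1.48) were tested, 13308 of 22180. The model was fitted with limma 3.58.1 (R 4.3.3; lmFit and eBayes with trend, 2 residual and 4.76 prior degrees of freedom), two-sided, with Benjamini-Hochberg adjustment over all tested genes and a threshold of 0.05. The differences are dbTg minus WT, the SE are limma's and the SD are over 2 arrays. The fit was tested on simulated data. Members and lists were chosen with earlier results of these data known. All members are named. Of the other pathway genes, those past the threshold and up to 3 with the smallest p-values in each role are named; further genes serve as examples chosen after their values were seen. Red blood cell markers were not analysed here. Other settings tried were each array left out in turn, a block for the replicate number, quantile normalization, median centring, no filter or the 60th percentile, the mean of a gene's rows, and eBayes without a trend or robust. Replicates are different mice, of different sex.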

Additional observations from a re-analysis of the deposited data

How the results depend on the processing

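With 1 array left out, 4 to 610 genes were called higher and 0 to 156 lower in dbTg, and 0 to 6 members higher; the fewest came without a dbTg array. The replicate number as a block called 63 genes higher and 2 lower, and 0 members. This block is also a block for sex and the pairing the labels' numbers allow. The settings of the report had no such block. Deviations of same-numbered arrays correlated at 0.05 across genes. That value cannot decide whether sex should be in the model, since single genes differed widely by sex (male minus female -5.18 for Xist and -3.85 for Myh7). Quantile normalization called 120 genes higher and 7 lower and 2 members, C1qa and C1qb. Without a filter 165 genes were higher and 7 lower, with 3 members called. The filter at the 60th percentile called 44 genes lower, and eBayes without a trend 14, against 27 with the settings of the report. The remaining settings called 4 to 6 members, and 0 members were called lower in all of the settings run. The difference of C7 ran from -2.23 to 1.11 with 1 array left out, that of Cfp from -0.23 to 0.65 and that of Cd14 from -0.093 to 0.75. The median difference of the tested members lay between 1.34 and 1.70. The sign of C7 turned without WT replicate 1 (1.11) and without dbTg replicate 2 (0.49), that of Cfp without WT replicate 1 and that of Cd14 without dbTg replicate 1. Beyond fewer arrays or genes entering a fit, the cause of these changes was not tested. The low signal of C2, C5ar1 and C1qc in WT limits what can be read from them.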
